A study of Rattus norvegicus with 12 samples.

Results

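Estradiol given to prepubertal rats eating soy protein was compared with the same soy diet alone, by reading the RNA of whole testes on Affymetrix arrays. The comparison was set by the labels: 3 arrays of soy with estradiol against 3 arrays of soy, 6 of the 12 arrays in the series. All rats were male Sprague-Dawley, were kept on a casein AIN-93G diet through lactation and were put on their test diet at weaning, on postnatal day 21, until day 33. In the soy diet, soy protein isolate took the place of casein as the protein. The estradiol group ate this diet and in addition received 17beta estradiol under the skin, from an osmotic minipump that delivered 10 µg per kg each day, and testes of both groups were frozen on postnatal day 34. The other 6 arrays, casein and casein with estradiol, served to estimate the spread and to ask whether estradiol acted alike on both diets. Of 31042 probe sets that were not array controls, 21729 passed a filter on low values and were tested, and they named 11777 genes. No label says that arrays came from separate animals, so the p-values measure only the spread between these samples. The labels describe no empty pump in the soy group, so the pump itself cannot be told apart from the estradiol it delivered.

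The Leydig cells between the seminiferous tubules make testosterone from cholesterol under the drive of luteinizing hormone from the pituitary, and they also release INSL3, a hormone that guides descent of the testis. Estradiol is known to lower gonadotropin release through feedback on the brain and pituitary. Inside the tubules, Sertoli cells answer follicle-stimulating hormone and testosterone, hold the germ cells and form the blood-testis barrier. Germ cells pass from spermatogonia through meiosis to round and elongating spermatids, and the late steps depend on testosterone.

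Arrays of the soy group correlated closely, and those with estradiol were more spread. The root mean square deviation from the group mean was 0.0832, 0.0992 and 0.101 log2 on the soy arrays and 0.188, 0.192 and 0.130 log2 on the arrays with estradiol. Soy with estradiol replicate 1 deviated along the estradiol effect (correlation over probe sets 0.454) and replicate 3 against it (-0.655), so replicate 1 tended to show the widest gap from soy and replicate 3 the narrowest. Replicate 1 also held transcripts of epididymis and duct epithelium: Adam7, a sperm-maturation gene of the epididymis, read 9.39 log2 there and between 5.79 and 5.93 log2 on the other 5 arrays. E-cadherin (Cdh1) read 7.92 log2 on that array and 4.89 to 6.18 log2 on the others. The mean of the 8 measured epididymis and duct markers was 8.30 log2 on that array, 7.21 and 7.59 log2 on the other estradiol arrays and 7.24 to 7.47 log2 on soy, so the main counts are also given without it. Fat markers varied in both groups, with Car3 at 5.43, 9.71 and 7.30 log2 on soy and 9.91, 7.44 and 10.08 log2 with estradiol.

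With the arrays quantile normalized, which gives each the same distribution of values, estradiol on the soy diet shifted about as many probe sets up as down. In the limma fit, whose adjusted p is the bare number in brackets after a difference in later paragraphs, 10763 probe sets had a Benjamini-Hochberg adjusted p under 0.05, which is 49.5% of those tested. Of these, 5487 rose (25.3%) and 5276 fell (24.3%), and in 10318 (47.5% of those tested) the soy and estradiol arrays also did not overlap. Called or not, the arrays did not overlap in 12458 probe sets (57.3%). Most changes were small: 92 probe sets rose (0.423%) and 168 fell (0.773%) by more than 2-fold. The median difference over all probe sets was -0.02 log2 and the median standard error (SE) was 0.0923 log2. The balance of rises and falls depends on the scaling: on the deposited values 6123 probe sets rose and 4652 fell. Without soy with estradiol replicate 1, 8963 probe sets passed the test, of which 4781 rose and 4182 fell, fewer than in the main fit. List counts given below without that array come from this fit, so a smaller count there can follow from the fewer calls. Counted as genes in the main fit, each by 1 probe set, 2884 of 11777 rose (24.5%) and 3177 fell (27.0%). The main counts for gene lists below are to be read against these shares. Of the genes called in later paragraphs, 42 had over 1 tested probe set, and in 23 of these another probe set did not pass. In 19 of the 23 every such probe set was dimmer on soy than the one shown: Azin2, Bcl2l11, Bmpr2, Ccna1, Cldn11, Ctnnb1, Cyp26b1, Fstl3, Gfra1, Gja1, Mvk, Nectin2, Nectin3, Odf2, Rdh10, Slc11a2, Smad5, Tfrc and Wt1. For list members this order follows from reading each gene on its probe set with the highest mean, so it does not favour the probe set shown. The other 4 of the 23, Btbd10, Greb1, Mex3a and Usp8, are described with both.

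**Figure D1:**
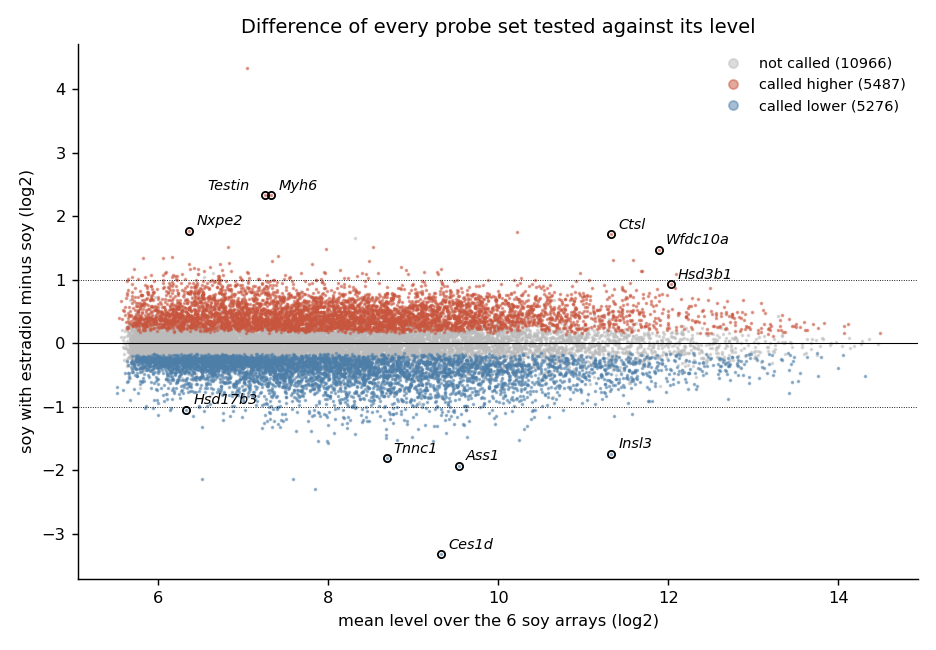
Log2 difference, soy with estradiol minus soy, against the mean log2 level over the 6 soy arrays of each of the 21729 probe sets tested, with the 10763 that passed the test coloured. Among the genes named on the plot Ces1d lies farthest below the zero line, and Myh6 and Testin farthest above it.

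The promoters of 4 genes that the results turn on are shown for context: Insl3 and Ces1d, which fell, and Testin and Amh, Sertoli cell genes that rose. Each run is the 250 bases before the start of transcription in RefSeq, build GRCr8, 5′ to 3′ on the gene's own strand. The capitals mark a match to AAGGTCA, the motif bound by Nr5a1 (steroidogenic factor 1). Amh was added to the set after its match was seen. The regions are chr16:18432939-18433188 on the plus strand for Insl3, chr19:30046244-30046493 on the plus strand for Ces1d, chr17:3852259-3852508 on the plus strand for Testin and chr7:9559868-9560117 on the minus strand for Amh.
Insl3: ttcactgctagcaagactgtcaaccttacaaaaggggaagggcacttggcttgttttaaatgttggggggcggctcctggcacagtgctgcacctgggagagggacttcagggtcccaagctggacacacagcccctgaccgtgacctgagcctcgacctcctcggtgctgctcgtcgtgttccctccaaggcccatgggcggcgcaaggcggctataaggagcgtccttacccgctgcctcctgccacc
Ces1d: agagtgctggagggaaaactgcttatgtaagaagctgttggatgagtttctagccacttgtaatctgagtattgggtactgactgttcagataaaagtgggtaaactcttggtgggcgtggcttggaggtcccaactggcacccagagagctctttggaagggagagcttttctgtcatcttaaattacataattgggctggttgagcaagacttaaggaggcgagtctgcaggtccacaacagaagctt
Testin: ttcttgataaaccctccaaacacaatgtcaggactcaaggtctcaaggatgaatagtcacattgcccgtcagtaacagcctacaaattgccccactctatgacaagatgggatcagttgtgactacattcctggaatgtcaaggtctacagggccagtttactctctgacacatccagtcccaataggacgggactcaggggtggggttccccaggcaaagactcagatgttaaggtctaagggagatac
Amh: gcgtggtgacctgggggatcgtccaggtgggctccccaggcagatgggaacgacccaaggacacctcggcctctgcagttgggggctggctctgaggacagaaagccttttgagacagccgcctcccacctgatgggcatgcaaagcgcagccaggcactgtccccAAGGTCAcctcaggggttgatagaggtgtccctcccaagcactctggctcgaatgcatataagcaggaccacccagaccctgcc
A promoter entry was matched for 9792 of the 11777 genes tested. The motif AAGGTCA, searched on both strands from 250 bases before to 50 after the start, occurred in 2.81% of them, in 2.41% of those that rose and in 3.23% of those that fell. The cAMP response element TGACGTCA, searched in the same way, occurred in 3.12% of all, 3.37% of those that rose and 3.12% of those that fell. A full estrogen response element, GGTCANNNTGACC, was found in 2 of the 9792 promoters. A match describes only the letters in this window.

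Leydig cell transcripts were mostly lower with estradiol. Of 11 measured markers of adult Leydig cells, 7 fell, 1 rose and 3 did not pass the test, with a median difference of -0.56 log2 against -0.04 log2 over all genes, and the counts were the same without soy with estradiol replicate 1. Insl3 read 12.26, 12.06 and 12.28 log2 on the soy arrays and 10.48, 10.42 and 10.48 log2 on the arrays with estradiol. The groups lay far apart and each was tight. The level fell by 1.74 log2 (SE 0.0899), or 3.34-fold, with a limma adjusted p of 1.1e-06. RNA of whole testis cannot tell fewer cells of a type from less RNA in each cell.

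Ces1d, a carboxylesterase that cleaves lipid esters, had the largest fall among probe sets that name a single gene. It read 11.01, 11.06 and 10.91 log2 on soy and 7.48, 7.16 and 8.36 log2 with estradiol, a difference of -3.33 log2 (SE 0.25, limma adjusted p 1.69e-05), or 10.1-fold. Every estradiol array was low, replicate 3 least so. Hsd11b1, which interconverts active and inactive glucocorticoid, read 9.83, 9.61 and 9.91 log2 on soy and 8.44, 8.06 and 8.99 log2 with estradiol (a difference of -1.28 log2, limma adjusted p 0.000244). Vcam1, an adhesion molecule of the Leydig cell surface, fell by 0.63 log2 from 8.02, 8.10 and 8.10 to 7.46, 7.56 and 7.31 log2 (limma adjusted p 0.000151).

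The steps of androgen synthesis did not move as a block. Of 15 measured genes of the pathway 6 fell, 3 rose and 6 did not pass the test, and without soy with estradiol replicate 1 the counts were 5 and 3. Star, which carries cholesterol into mitochondria, read 8.53, 8.78 and 8.55 log2 on soy and 8.53, 7.85 and 7.86 log2 with estradiol. Replicate 1 of the estradiol group lay at the soy level, and the fall of 0.54 log2 (limma adjusted p 0.0192) did not pass without soy replicate 2 (0.0701), soy with estradiol replicate 2 (0.0627) or replicate 3 (0.0734), nor on the deposited values (0.0604) or with arrays centred on their medians (0.0513). A second, dimmer probe set of Star fell by 0.85 log2, from 7.84, 7.90 and 7.69 to 7.07, 6.82 and 6.99 log2 (limma adjusted p 0.000116), and there the groups did not overlap. Cyp11a1, the side-chain cleavage enzyme that opens the pathway, fell by 0.63 log2, from 8.86, 8.96 and 8.72 to 8.50, 8.00 and 8.15 log2 (limma adjusted p 0.00868).

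Hsd3b1, which turns pregnenolone into progesterone, went the other way. Its values were 11.42, 11.89 and 11.38 log2 on soy and 12.64, 12.46 and 12.39 log2 with estradiol, a rise of 0.93 log2 (SE 0.14, limma adjusted p 0.000388). Cyp17a1, the hydroxylase and lyase of the next step, fell by 0.56 log2, from 11.90, 12.14 and 11.71 to 11.54, 11.09 and 11.42 log2 (limma adjusted p 0.0179). That call did not pass when soy replicate 2 (0.073) or replicate 2 of soy with estradiol (0.0593) was left out. Hsd17b3, which makes testosterone in the last step, fell by 1.05 log2, from 6.82, 6.88 and 6.85 to 5.83, 5.69 and 5.91 log2 (SE 0.0881, limma adjusted p 2.88e-05). Its estradiol values were close to the filter level of 5.69 log2.

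The luteinizing hormone receptor did not follow the enzymes. Lhcgr read 9.03, 8.88 and 8.73 log2 on soy and 8.98, 8.90 and 9.01 log2 with estradiol, a difference of 0.08 log2 (SE 0.11, limma adjusted p 0.542). The groups overlapped. Nr5a1, the transcription factor that drives many steroidogenic genes, rose by 0.31 log2 from 7.70, 7.64 and 7.68 to 8.00, 7.92 and 8.03 log2 (limma adjusted p 0.00174). Cytochrome b5 (Cyb5a), an aid to the lyase step, rose by 0.27 log2 (limma adjusted p 0.00437).

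**Figure D2:**
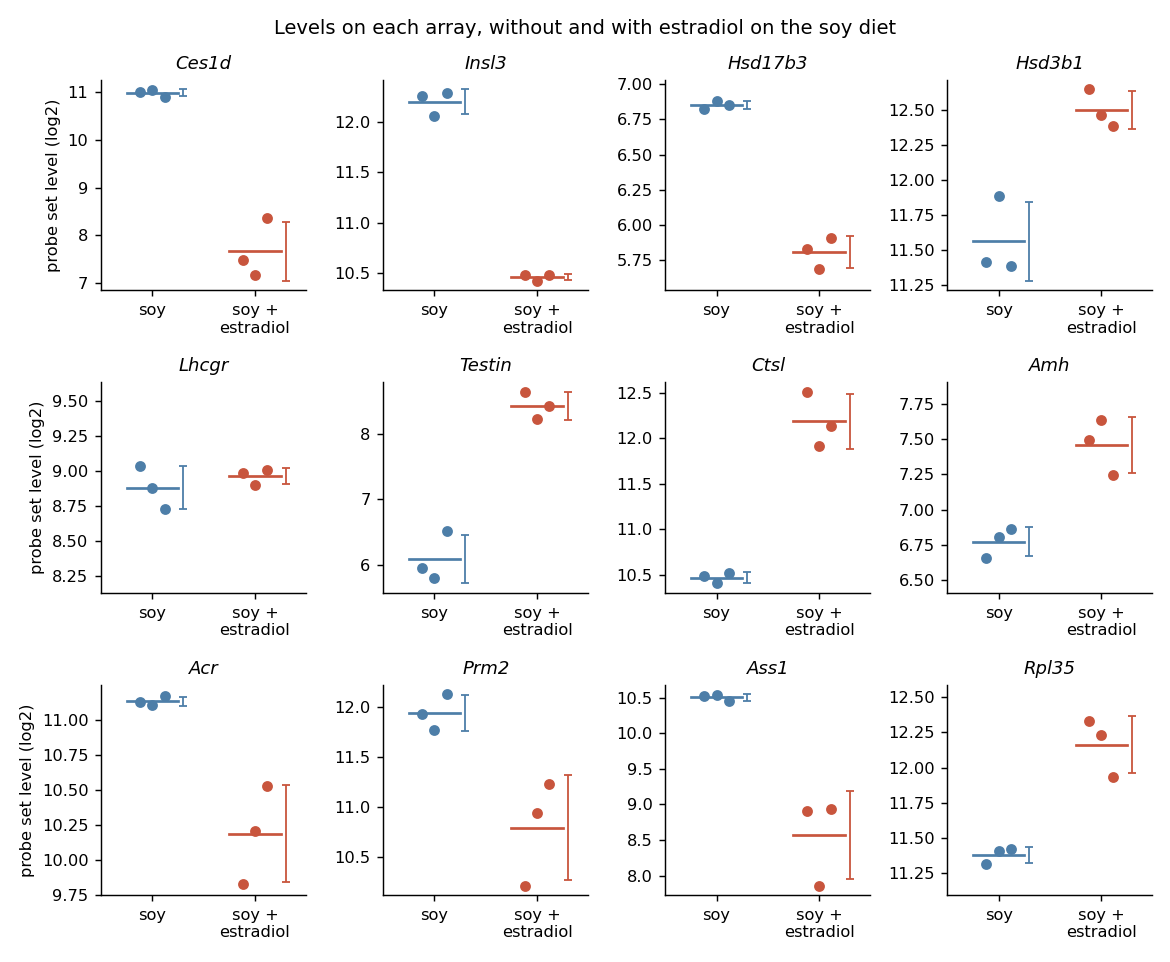
Log2 level of 12 genes on each soy array and each array of soy with estradiol, with bars at the group mean and error bars of 1 SD (n = 3 arrays a group). Ces1d, Insl3, Hsd17b3, Acr, Prm2 and Ass1 are lower with estradiol, Hsd3b1, Testin, Ctsl, Amh and Rpl35 are higher, and the points of Lhcgr overlap.

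Cholesterol synthesis leaned downward. Of 18 measured genes 7 fell, 1 rose and 10 did not pass the test, with a median of -0.17 log2, and the counts were the same without soy with estradiol replicate 1. Sqle, the squalene epoxidase, read 9.83, 9.72 and 9.55 log2 on soy and 8.97, 8.91 and 9.31 log2 with estradiol (a difference of -0.64 log2, limma adjusted p 0.000929). Fdft1, which makes squalene, fell by 0.66 log2 (limma adjusted p 0.00207), mevalonate kinase Mvk by 0.53 log2 (0.00156) and the decarboxylase Mvd by 0.44 log2 (0.000922). The sterol sensor Insig1 also fell, by 0.29 log2 (limma adjusted p 0.0083). Npc2, which carries cholesterol out of lysosomes, rose by 0.75 log2, from 11.22, 11.52 and 11.42 to 12.34, 12.09 and 11.97 log2 (limma adjusted p 0.000469). Scarb1, the receptor for cholesterol of high density lipoprotein, differed by -0.13 log2 and did not pass (0.309).

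Sertoli cell transcripts were higher with estradiol. Of 19 measured markers 14 rose, 0 fell and 5 did not pass the test, with a median of 0.57 log2. Without soy with estradiol replicate 1, 11 rose and the median was 0.52 log2. The list's mean log2 level was 9.32, 9.30 and 9.31 on the soy arrays and 10.14, 9.81 and 9.90 with estradiol. Testin, a Sertoli cell protein of cell junctions, read 5.96, 5.80 and 6.51 log2 on soy and 8.64, 8.22 and 8.42 log2 with estradiol. All 3 estradiol arrays stood clear of soy, and the rise was 2.34 log2 (SE 0.17, limma adjusted p 1.03e-05), or 5.05-fold.

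Ctsl, the protease cathepsin L, rose by 1.71 log2 (SE 0.13), or 3.28-fold, from 10.49, 10.41 and 10.52 to 12.51, 11.91 and 12.13 log2 (limma adjusted p 1.75e-05). Cst12, a cystatin, rose by 0.95 log2, from 11.12, 11.01 and 11.09 to 12.02, 12.11 and 11.93 log2 (limma adjusted p 1.15e-05). The values of both groups were tight for this inhibitor of cysteine proteases. Anti-Müllerian hormone (Amh), a product of immature Sertoli cells, rose by 0.69 log2, from 6.65, 6.80 and 6.86 to 7.50, 7.64 and 7.25 log2 (limma adjusted p 0.000388). The transcription factor Wt1 rose by 0.74 log2 (0.000268), Tsx by 0.77 log2 (0.000164) and Kitlg, the ligand that sustains spermatogonia, by 0.86 log2 (0.000196). Clusterin (Clu) was at 13.11, 13.16 and 12.96 log2 on soy and 14.10, 12.78 and 13.65 log2 with estradiol and did not pass (limma adjusted p 0.134), with replicate 2 below soy. Without that array its rise of 0.80 log2 passed (0.000439), without replicate 1 the difference was 0.14 log2 (0.543), and a dimmer probe set rose by 0.25 log2 (0.026). Rhox5, a target of testosterone in Sertoli cells, differed by -0.14 log2 (0.205), and passed without soy replicate 2 (-0.23 log2, 0.0468).

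Genes of inhibin, activin and BMP signalling rose in number. Of 29 measured, 19 rose and 4 fell, with a median of 0.37 log2; without soy with estradiol replicate 1, 16 rose and 4 fell. Among ligands, the inhibin beta B subunit Inhbb read 8.37, 8.46 and 8.40 log2 on soy and 9.06, 8.82 and 9.04 log2 with estradiol, a rise of 0.57 log2 (limma adjusted p 0.000344). Among receptors, Tgfbr1 rose by 0.67 log2 (0.000158), Bmpr2 by 0.63 log2 (0.00216) and Amhr2, the receptor of anti-Müllerian hormone, by 0.51 log2 (0.00538). Smad5, which passes on BMP signals, rose by 0.71 log2, from 8.36, 8.42 and 8.45 to 9.22, 9.06 and 9.06 log2 (limma adjusted p 0.000119), and the BMP target Id3 rose by 0.85 log2 (0.000219). Of the activin antagonists, follistatin (Fst) fell by 0.35 log2 (0.00537) and Fstl3 rose by 0.40 log2 (0.00213). Notch1, a receptor of cell-to-cell signalling, rose by 0.80 log2, from 7.84, 7.86 and 7.88 to 8.90, 8.54 and 8.55 log2 (limma adjusted p 0.000122).

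Blood-testis barrier and junction genes followed the Sertoli cell markers. Of 22 measured 15 rose and 2 fell, with a median of 0.37 log2, and without soy with estradiol replicate 1 the counts were 11 and 3 of 21. The largest rise on the list, 1.34 log2, was that of Cdh1, also on the epididymis and duct list. Cdh1 read highest on that array, which held duct transcripts, and lost its call in several alternatives. Claudin 11 (Cldn11), the main claudin of the barrier and a member of both lists, read 11.61, 11.52 and 11.49 log2 on soy and 12.57, 12.16 and 12.22 log2 with estradiol (a rise of 0.78 log2, limma adjusted p 0.000206). The gap junction protein Gja1, also on both lists, rose by 0.71 log2 (0.000133). Itga6, an integrin chain, rose by 1.10 log2, from 7.33, 7.44 and 7.45 to 8.56, 8.51 and 8.45 log2 (limma adjusted p 1.03e-05). Beta-catenin (Ctnnb1) rose by 0.84 log2 (8.29e-05) and the scaffold Tjp1 by 0.54 log2 (0.000106). Nectin3, which spermatids use to bind Sertoli cells, fell by 0.47 log2 (0.000391) while Nectin2, its partner on Sertoli cells, rose by 0.40 log2 (0.00884).

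**Figure D3:**
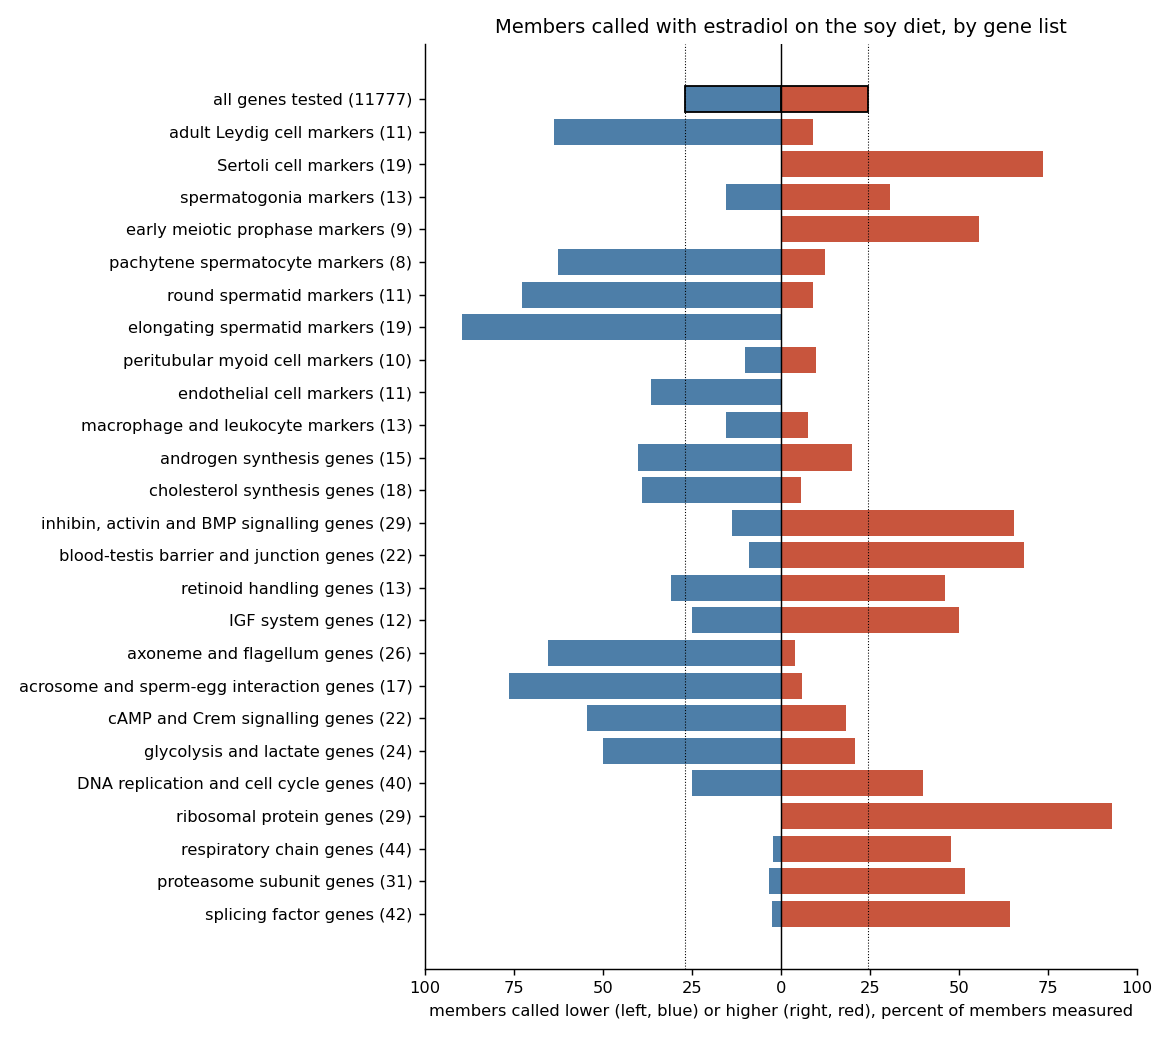
Percent of the measured members of 25 gene lists that fell (left) or rose (right) in soy with estradiol minus soy, with dotted lines at the shares over all genes, 27.0% and 24.5%. Spermatid, acrosome and flagellum lists reach far to the left and the ribosomal protein, Sertoli cell and junction lists far to the right.

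Spermatid transcripts were lower with estradiol. Of 19 measured markers of elongating spermatids 17 fell and 0 rose, with a median of -0.52 log2, and of 11 markers of round spermatids 8 fell and 1 rose, with a median of -0.53 log2. Without soy with estradiol replicate 1, 12 of the 19 and 6 of the 11 fell, and the round spermatid median was -0.33 log2. With array weights the elongating spermatid median was -0.33 log2. The mean log2 level of the elongating spermatid list was 12.97, 12.97 and 13.03 on soy and 12.20, 12.45 and 12.65 with estradiol. The order over the estradiol arrays, lowest on replicate 1 and highest on replicate 3, recurred in Acr, Prm2, Tnp2 and Akap4.

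Acr, the protease acrosin of the acrosome, read 11.13, 11.10 and 11.17 log2 on soy and 9.83, 10.21 and 10.53 log2 with estradiol (a difference of -0.94 log2, limma adjusted p 0.000572). Protamine 2 (Prm2), which packs sperm DNA, fell by 1.15 log2 (SE 0.29), from 11.92, 11.77 and 12.12 to 10.21, 10.94 and 11.23 log2 (limma adjusted p 0.00674). Transition protein 2 (Tnp2), which precedes the protamines, fell by 0.79 log2 (0.00492). Akap4, the main protein of the fibrous sheath of the sperm tail, fell by 0.89 log2, from 11.47, 11.47 and 11.54 to 10.28, 10.55 and 10.96 log2 (0.00295). Tex101, a germ cell surface protein on the round spermatid list, was the member that rose, by 0.68 log2 (0.000116).

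Genes of the acrosome and of the flagellum were lower too, on lists that share members with the spermatid lists. Tex101 is the member that rose on both the acrosome and round spermatid lists, and Odf2 is also an elongating spermatid marker. The counts are therefore not independent. Of 17 measured acrosome and sperm-egg interaction genes 13 fell and 1 rose (median -0.60 log2), and without soy with estradiol replicate 1 the counts were again 13 and 1. Spam1, the sperm hyaluronidase, fell by 0.83 log2 (limma adjusted p 0.000533), Zpbp2, which binds the egg coat, by 0.89 log2 (0.000531) and Adam18 by 0.75 log2 (0.000277). Of 26 axoneme and flagellum genes 17 fell and 1 rose (median -0.38 log2), 15 and 1 without that array, when the median was -0.24 log2. Tekt5, a tektin of the tail, read 9.58, 9.60 and 9.46 log2 on soy and 8.25, 7.99 and 8.70 log2 with estradiol (a difference of -1.23 log2, limma adjusted p 0.000635). Odf2 of the outer dense fibres fell by 0.42 log2 (0.000534) and the axonemal dynein Dnah1 by 0.57 log2 (0.000705). Ift20, an intraflagellar transport gene, was the member that rose, by 0.25 log2 (0.00506).

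Genes of cAMP signalling, which acts in late spermatids and in sperm, mostly fell: 12 of 22 measured, against 4 that rose, and 10 against 4 without soy with estradiol replicate 1. Adcy10, the soluble adenylyl cyclase of sperm, fell by 0.62 log2 (limma adjusted p 0.00276), Adcy3 by 0.46 log2 (0.000642) and the phosphodiesterase Pde4a by 0.89 log2 (0.000805). For Prkar2a, a regulatory subunit of protein kinase A, probe sets disagreed. A probe set fell from 9.35, 9.40 and 9.52 to 7.30, 7.89 and 8.59 log2 (-1.49 log2, limma adjusted p 0.00103) and another rose from 9.26, 9.33 and 9.10 to 9.94, 9.93 and 9.61 log2 (by 0.60 log2, 0.000764). The dimmest of the 3 differed by -0.34 log2 (0.00476), so the direction of the gene is uncertain.

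Earlier germ cells gave a mixed picture. Of 8 measured pachytene spermatocyte markers 5 fell and 1 rose (median -0.35 log2), with the same counts without soy with estradiol replicate 1. Calr3, a chaperone of the meiotic testis, fell by 0.81 log2 (limma adjusted p 0.000132) and Ccna1, the cyclin of male meiosis, by 0.75 log2 (0.000319). Ldhc, the testis lactate dehydrogenase, and Hspa2, a meiotic chaperone, differed by -0.09 and -0.14 log2 and did not pass (0.15 and 0.224), although Ldhc passed on the deposited values (0.0192) and with arrays centred on their medians (0.0172). Among 9 markers of early meiotic prophase 5 rose and 0 fell (median 0.17 log2), again the same without that array. Sycp1, which zips paired chromosomes, read 9.79, 9.81 and 9.63 log2 on soy and 10.25, 10.08 and 10.15 log2 with estradiol (a rise of 0.42 log2, limma adjusted p 0.00273). Sycp3 of the chromosome axis rose by 0.27 log2 (0.0031) and Tex15, needed for meiotic recombination, by 0.51 log2 (0.000182).

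Of 13 measured spermatogonia markers 4 rose and 2 fell (median 0.04 log2), which is near the shares over all genes. The members differed: Gfra1, the receptor for GDNF on stem cells, fell by 0.57 log2, from 8.70, 8.56 and 8.88 to 7.89, 8.17 and 8.38 log2 (limma adjusted p 0.00466). Cyclin D2 (Ccnd2) rose by 0.99 log2, from 9.42, 9.40 and 9.32 to 10.63, 10.40 and 10.08 log2 (0.000181). Sall4, a stem cell transcription factor, rose by 0.79 log2 (0.000204) and Uchl1, a spermatogonial ubiquitin hydrolase, by 0.42 log2 (0.00144).

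**Figure D4:**
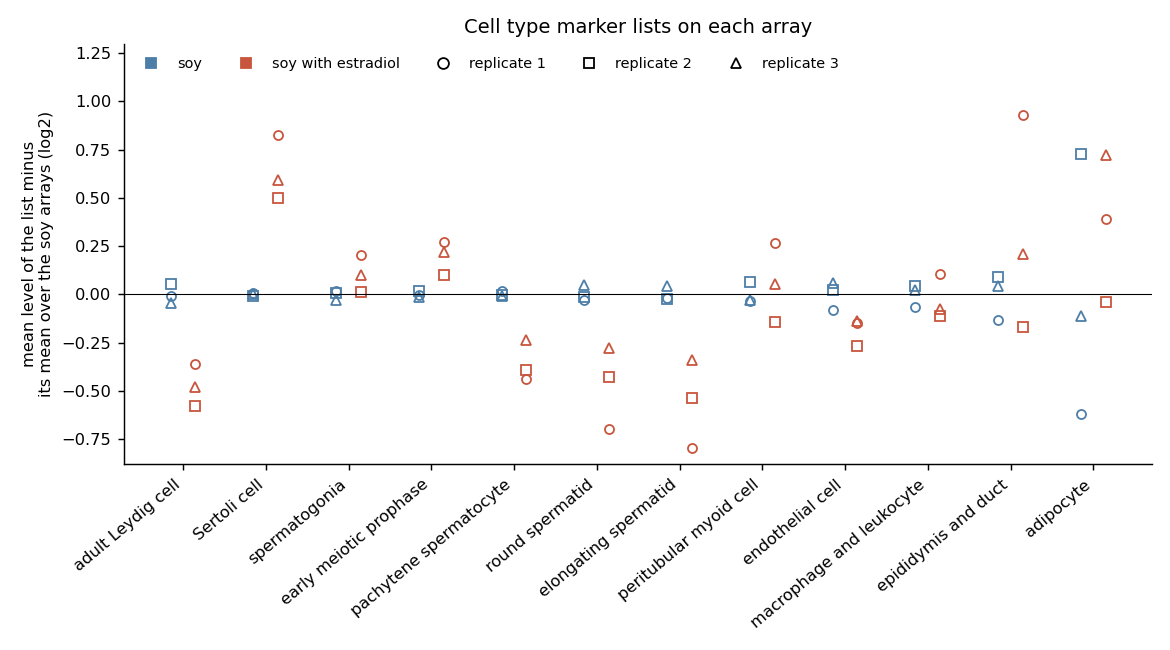
Mean log2 level of 12 marker lists on each of the 6 arrays, relative to the mean over the soy arrays. Sertoli cell markers lie above zero and spermatid and adult Leydig cell markers below it on all 3 arrays with estradiol, farthest for spermatids on replicate 1, where the epididymis and duct list is also raised.

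DNA replication and cell cycle genes did not move as a block. Of 40 measured 16 rose and 10 fell (13 and 10 without soy with estradiol replicate 1). Mcm4, of the replicative helicase, read 5.99, 6.17 and 6.13 log2 on soy and 7.17, 6.99 and 6.96 log2 with estradiol (a rise of 0.94 log2, limma adjusted p 6.33e-05). Cyclin A2 (Ccna2) rose by 0.86 log2 (0.000139) and Mcm2 by 0.56 log2 (0.000259). The division kinases went down: Plk1 read 10.17, 10.11 and 10.12 log2 on soy and 9.02, 9.27 and 9.65 log2 with estradiol (a difference of -0.82 log2, 0.000322). Aurkb fell by 0.79 log2 (0.00054) and Aurka by 0.60 log2 (0.000293).

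Ribosomal protein genes nearly all rose, and genes of the respiratory chain, the proteasome and splicing rose more often than they fell. Of 29 ribosomal protein genes measured 27 rose and 0 fell, with a median of 0.40 log2, and the counts were the same without soy with estradiol replicate 1. Rpl35, of the large ribosomal subunit, read 11.31, 11.40 and 11.42 log2 on soy and 12.33, 12.23 and 11.93 log2 with estradiol (a rise of 0.79 log2, limma adjusted p 0.000125). Of 44 respiratory chain genes 21 rose and 1 fell (median 0.20 log2), with 23 and 0 without that array and a median of 0.12 log2 with array weights. Of 20 tricarboxylic acid cycle genes 3 rose and 4 fell (median 0.02 log2), with 6 and 2 without soy with estradiol replicate 2 and 4 and 2 without soy replicate 1. Cyc1, cytochrome c1 of complex III, rose by 0.78 log2, from 10.34, 10.28 and 10.37 to 11.32, 11.07 and 10.95 log2 (0.000101).

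Proteasome subunits (31 measured) gave 16 that rose and 1 that fell, 17 and 4 without soy with estradiol replicate 1, and 4 fell also without replicate 3. Psmc6, an ATPase of its cap, rose by 0.65 log2 (limma adjusted p 0.000113). Of 42 splicing factor genes 27 rose and 1 fell (median 0.29 log2), and 24 and 1 without that array. Snrpb, a core protein of splicing particles, rose by 0.62 log2, from 11.06, 11.02 and 11.10 to 11.78, 11.70 and 11.57 log2 (0.000126). Among 24 heat shock proteins and chaperones 9 rose and 4 fell. The chaperones Hspa4 and Hsp90ab1 rose, by 1.01 log2 (6.33e-05) and 0.87 log2 (8.77e-05), and the small heat shock protein Hspb1 fell by 0.99 log2, from 8.73, 8.70 and 8.92 to 7.53, 7.91 and 7.93 log2 (0.000213).

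Sugar metabolism leaned downward. Of 24 measured glycolysis and lactate genes 12 fell and 5 rose (median -0.24 log2). Without soy with estradiol replicate 1 the counts were 12 and 3, and 3 rose also without soy replicate 1, 2 or 3. Pfkfb4, the testis isoform that sets the pace of glycolysis, read 8.76, 8.63 and 8.88 log2 on soy and 7.18, 7.10 and 7.39 log2 with estradiol (a difference of -1.54 log2, limma adjusted p 7.02e-05), and its other probe set fell by 0.60 log2 (0.000433). Gapdhs, the glyceraldehyde phosphate dehydrogenase of spermatids and sperm, fell by 0.88 log2 (0.00457; -0.55 log2 with array weights), and hexokinase 1 (Hk1) by 0.66 log2 (0.00237). The lactate and pyruvate carrier Slc16a7 fell by 0.81 log2 (0.00251), while Ldhb, a lactate dehydrogenase chain, rose by 0.63 log2 (0.00195). Both Gapdhs and Hk1 are also on the round spermatid list.

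Of 32 genes of fatty acid oxidation and lipid droplets 12 fell and 6 rose (11 and 4 without soy with estradiol replicate 1). Cd36, a fatty acid and lipoprotein receptor, read 7.28, 7.25 and 6.99 log2 on soy and 6.05, 5.20 and 6.28 log2 with estradiol (a difference of -1.33 log2, limma adjusted p 0.000403). Pnpla2, the first lipase of stored fat, fell by 0.57 log2 (0.000321), and fatty acid synthase (Fasn) rose by 0.61 log2 (0.000353).

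Among probe sets that name a single gene, the largest fall after Ces1d was in arginine synthesis. Ass1, which makes argininosuccinate on the way to arginine, read 10.52, 10.54 and 10.45 log2 on soy and 8.91, 7.86 and 8.94 log2 with estradiol, a difference of -1.93 log2 (SE 0.22, limma adjusted p 9.25e-05). The next enzyme, Asl, fell by 0.42 log2 (0.0029). Azin2, a spermatid gene of polyamine control, fell by 1.20 log2, from 9.94, 9.90 and 10.10 to 8.28, 8.87 and 9.18 log2 (0.000686). Ddah1, which clears an inhibitor of nitric oxide synthesis, rose by 0.57 log2 (0.00066) and Gamt, of creatine synthesis, by 0.64 log2 (0.00116). Over the 21 measured genes 7 fell and 6 rose.

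Among 12 iron handling genes 4 fell and 4 rose. Haptoglobin (Hp), which binds free haemoglobin, fell by 1.38 log2, from 8.56, 8.44 and 8.45 to 7.11, 7.05 and 7.15 log2 (SE 0.11, limma adjusted p 2.72e-05), with tight groups. The iron exporter Slc40a1 fell by 0.57 log2 on its brighter probe set (0.00426) and rose by 0.81 log2 on another (0.000168), so its direction is uncertain. The importers rose: Tfrc, the transferrin receptor, by 0.45 log2 (0.00627) and Slc11a2 by 0.60 log2 (0.00254).

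Retinoid handling genes gave 6 that rose and 4 that fell of 13. Cyp26b1, which breaks down retinoic acid around the tubules, read 10.66, 10.66 and 10.62 log2 on soy and 11.45, 11.24 and 11.25 log2 with estradiol (a rise of 0.66 log2, limma adjusted p 0.000147). Crabp1, a binding protein of retinoic acid, rose by 0.80 log2 (0.000174). Rdh10, which makes retinal, fell by 0.72 log2 (0.00607). In the IGF system 6 of 12 rose and 3 fell. Igfbp3, a carrier that limits IGF action, rose on both of its probe sets, by 1.49 log2 (0.000219) on the dimmer and on the brighter from 8.62, 8.94 and 8.60 to 10.58, 9.31 and 9.64 log2 (by 1.13 log2, 0.0027). Igf2r, which clears IGF2, rose by 0.63 log2 (0.00109) and Igfbp2 fell by 0.53 log2 (0.00129).

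The estrogen receptors themselves were below the filter and were not tested. Esr1 read 4.86, 5.01 and 5.27 log2 on soy and 4.43, 4.29 and 4.63 log2 with estradiol, and Esr2 4.66, 4.53 and 4.31 against 4.22, 4.34 and 4.20 log2. Of 16 targets of estrogen receptors on the array, 6 were below the filter. Of the 10 measured 4 rose, 3 fell and 3 did not pass, with differences from -0.60 to 1.00 log2 and a median of 0.27 log2. That median was 0.09 log2 without soy with estradiol replicate 1, 0.18 log2 without replicate 3, 0.45 log2 without replicate 2 and 0.43 log2 without soy replicate 2. Without soy replicate 1, 2 rose and 2 fell, and without soy replicate 3, 4 rose and 1 fell. Greb1, a cofactor of the receptor, read 5.93, 6.06 and 5.86 log2 on soy and 6.91, 6.81 and 7.12 log2 with estradiol (a rise of 1.00 log2, SE 0.10, limma adjusted p 6.15e-05). Another probe set of Greb1, brighter on soy, read 6.26, 6.49 and 6.39 log2 on soy and 6.09, 6.40 and 6.25 log2 with estradiol. It did not pass (-0.14 log2, 0.412), so the change of the gene is uncertain. Nrip1, a corepressor of nuclear receptors, rose by 0.93 log2, from 6.69, 6.85 and 6.73 to 7.82, 7.77 and 7.47 log2 (6.99e-05). Cyp1b1, which hydroxylates estradiol and was not among these 10 targets, fell by 0.86 log2, from 10.21, 10.23 and 10.24 to 9.61, 9.09 and 9.41 log2 (0.000165).

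Of 18 measured genes of the thyroid and glucocorticoid axis 5 rose, 5 fell and 8 did not pass (median 0.03 log2), which is near the shares over all genes. The number that rose was 3 without soy replicate 1 and without replicate 1 or 2 of soy with estradiol, and 3 fell without soy replicate 3. The glucocorticoid receptor Nr3c1 rose by 0.64 log2 (limma adjusted p 0.000212). Its targets Sgk1, a kinase of ion transport, and Tsc22d3, a mediator of glucocorticoid action, rose by 0.79 log2 (0.000106) and 0.56 log2 (0.00173). The largest change on the list was a fall, that of Hsd11b1, with a difference of -1.28 log2, as given above.

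Of 11 measured endothelial cell markers 4 fell and 0 rose, with a median of -0.19 log2, and the same counts without soy with estradiol replicate 1. Over all genes 27.0% fell and 24.5% rose, so the number of these markers that fell was not far from the share over all genes. Without soy replicate 3, 3 fell and the median was -0.11 log2. Flt1, a receptor of vascular endothelial growth factor, fell by 0.51 log2 (limma adjusted p 0.00163), Eng, a co-receptor of endothelial cells, by 0.33 log2 (0.0073; -0.22 log2 on the deposited values) and the adhesion molecule Esam by 0.24 log2 (0.0044). Of 13 macrophage and leukocyte markers 1 rose, 2 fell and 10 did not pass, and without soy with estradiol replicate 1 the counts were 1 and 0. Their differences ran from -0.99 to 1.16 log2, with a median of -0.02 log2. Cd74, the invariant chain of antigen presentation, was the member that rose, from 8.20, 8.37 and 8.43 to 10.15, 8.61 and 9.72 log2 (by 1.16 log2, 0.00475), with replicate 2 near the soy level. Of 17 measured antigen presentation genes, Cd74 included, 2 rose, 5 fell and 10 did not pass (median -0.07 log2). Ddx60, an interferon-induced helicase, rose by 1.30 log2, from 6.97, 6.44 and 6.67 to 7.96, 8.19 and 7.83 log2 (0.000124). It had the largest rise of the 15 measured interferon-induced genes, of which 5 rose, 2 fell and 8 did not pass (median 0.05 log2). On the array 9 more of that list were below the filter. Of 10 peritubular myoid cell markers 8 did not pass.

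Several of the largest changes lay outside these lists or in a list of another tissue. Myh6, the alpha heavy chain of cardiac myosin, read 6.35, 6.07 and 6.06 log2 on soy and 8.56, 8.50 and 8.41 log2 with estradiol, a rise of 2.34 log2 (SE 0.11, limma adjusted p 1.01e-06), or 5.05-fold. Tnnc1, troponin C of slow and cardiac muscle, went the other way and fell by 1.82 log2, from 9.52, 9.63 and 9.64 to 7.03, 8.06 and 8.25 log2 (SE 0.30, 0.000531). Both genes were picked among probe sets whose groups did not overlap. Of 13 measured cardiac and slow muscle genes 1 rose, Myh6, while 4 fell, Tnnc1 among them, and 8 did not pass (median -0.17 log2). Striated muscle markers, a separate list, gave 1 risen and 2 fallen of 9, and 0 and 1 without soy with estradiol replicate 1. The cardiac hormone Nppa read 6.13 to 6.42 log2 on soy and 5.96 to 6.26 log2 with estradiol and did not pass (0.366).

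Among other large rises, Wfdc10a, a protein of the whey acidic family, went from 11.10, 11.10 and 11.26 to 12.93, 12.54 and 12.41 log2 (by 1.47 log2, limma adjusted p 1.75e-05). Nxpe2 rose by 1.78 log2 (5.17e-05), from 5.29, 5.61 and 5.53 to 7.67, 7.15 and 6.94 log2. The RNA-binding protein Mex3a rose by 1.36 log2 (1.03e-05), from 5.55, 5.44 and 5.46 to 6.76, 7.02 and 6.75 log2, while its brighter probe sets rose by 0.49 log2 (0.00166) and differed by 0.14 log2 (0.166). These probe sets of largest change were picked among those whose groups did not overlap. For Nxpe2 and Mex3a the soy level lay under the filter level.

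Among other large falls, Epha7, a receptor of ephrins, went from 8.68, 8.82 and 8.84 to 6.80, 7.07 and 7.75 log2 (-1.58 log2, limma adjusted p 0.000207). Fscn3, the fascin of spermatids, fell by 1.54 log2, from 10.07, 9.92 and 10.01 to 8.06, 8.43 and 8.89 log2 (0.000467). Mgll, the lipase that ends endocannabinoid signals, read 11.18, 11.16 and 10.70 log2 on soy and 9.90, 8.37 and 10.18 log2 with estradiol (a difference of -1.53 log2, 0.0043), with replicate 2 far below the other estradiol arrays. Without that array the difference was -0.97 log2 (0.00193), and the 3 brighter probe sets of Mgll fell by 0.55, 0.46 and 0.70 log2 (0.000588, 0.00339 and 0.000747). Ppp4r1, a phosphatase subunit, fell by 1.53 log2 (0.000271) on a probe set, from a mean of 9.57 to 8.04 log2. On its other probe set, at 8.97 and 8.81 log2, it fell by only 0.16 log2 (0.0455). Sert1 fell by 1.48 log2 (0.000141).

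The same estradiol infusion on the casein diet changed 9084 probe sets (41.8%). Insl3 differed by -1.74 log2 on soy and -1.61 log2 on casein, Ces1d by -3.33 and -2.52 log2, and Testin by 2.34 and 1.90 log2. The median over the Sertoli cell list was 0.57 log2 on soy and 0.51 log2 on casein, over elongating spermatid markers -0.52 and -0.63 log2 and over ribosomal protein genes 0.40 and 0.28 log2. The difference between the estradiol effects on the 2 diets, the interaction, passed the test for 741 probe sets (3.41%). Its median SE was 0.131 log2. That count fell to 173 without soy replicate 1 and 284 without soy replicate 3, to 468, 277 and 157 without casein replicate 1, 2 or 3, and to 156, 281 and 267 without casein with estradiol replicate 1, 2 or 3.

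Of those 741 probe sets 511 also passed the test on soy, 276 of them on soy and not on casein, and 148 moved in opposite directions on the diets. Greb1 rose by 1.00 log2 on soy and by 0.23 log2 on casein, where it did not pass (limma adjusted p 0.08), a difference of 0.77 log2 (limma adjusted p 0.0159) that passed in 16 of 18 alternatives. The other probe set of Greb1 gave an interaction of -0.19 log2 that did not pass (0.586). Mex3a rose by 1.36 log2 on soy and 0.59 log2 on casein, a difference of 0.77 log2 (0.0149), and it kept that call in each of 18 alternatives, but its brighter probe sets differed between diets by 0.13 log2 (0.607) and -0.03 log2 (0.912). Myh6 rose by 2.34 and 1.60 log2, a difference of 0.74 log2 (0.0333) that passed in 12 of 19 alternatives.

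The smallest interaction p-values among genes called on soy belonged to genes whose casein arrays were low. Btbd10 read 8.61, 8.68 and 8.65 log2 on soy and 8.28, 8.21 and 8.44 log2 with estradiol, a difference of -0.34 log2 (limma adjusted p 0.00195). On casein it rose from 7.65 ± 0.01 to 8.37 ± 0.03 log2 (SD, n = 3), so the difference in effect was -1.05 log2 (0.000746). The brighter probe set of Btbd10 read 10.95 log2 on soy and 10.91 log2 with estradiol (-0.04 log2, 0.663), with an interaction of -0.11 log2 (0.58). Usp8, a ubiquitin protease of receptor sorting, fell by 0.44 log2 on soy and rose by 1.16 log2 on casein (interaction -1.60 log2, 0.000746), while its brighter probe set differed by -0.10 log2 on soy (0.301) with an interaction of -0.42 log2 (0.0511). Kdm5b, a histone demethylase, rose on both diets, by 0.32 log2 on soy and 1.27 log2 on casein (interaction -0.95 log2, 0.00107). Of its 4 brighter probe sets, which rose by 0.39 to 0.51 log2 on soy, 1 passed in the interaction (-0.93 log2, 0.01) and 3 did not (0.305 to 0.889). On the probe sets with the smallest p-values the 2 diets lay closer together with estradiol than without it in these 3 genes, and each kept its interaction call in all 19 alternatives.

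**Figure D5:**
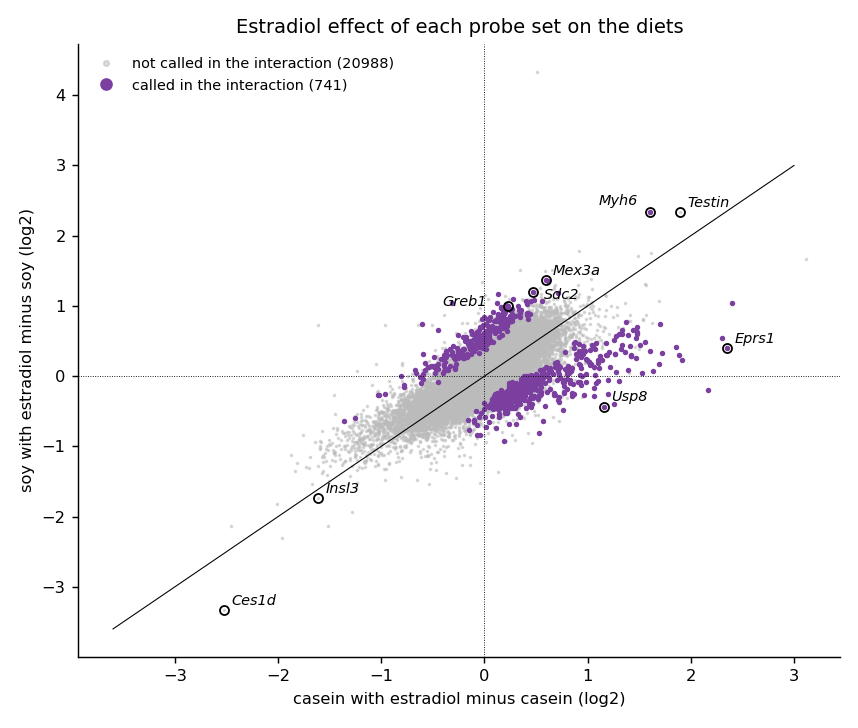
Log2 effect of estradiol on the soy diet against its effect on the casein diet for each probe set tested, with the line of equality and the 741 probe sets called in the interaction coloured. Insl3, Ces1d and Testin were not called in the interaction, and Greb1, Mex3a and Usp8 were, each on the probe set labelled.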

How the data were processed

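RNA of whole testes was measured on 12 Affymetrix rat arrays. The deposited values are log2 probe set intensities made by the authors with GCOS, the Affymetrix operating software, per the submitters' processing notes, with no version. Background correction, probe summary and scaling: not given in the sources used here. Between arrays, the lower quartiles, medians and upper quartiles differed by up to 0.166, 0.069 and 0.185 log2, above a limit of 0.15, so the arrays were quantile normalized. The 57 control probe sets were left out, and so was the dimmest 30% of the others by mean level (below 5.69 log2). All 4 groups of 3 arrays entered a single limma fit (version 3.58.1, R 4.3.3; lmFit and eBayes with a variance trend, 8 residual degrees of freedom). P-values were adjusted by Benjamini-Hochberg over the 21729 probe sets tested and called under 0.05. The number of arrays limits the precision.

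Of the file's probe sets, 20832 carried 1 gene symbol, 436 several and 9831 none, and probe sets with several named no gene. A list member was read from its probe set with the highest mean, and genes among the largest changes from the probe set that changed most. Of 3214 genes read by more than 1 probe set, 277 had probe sets called in opposite directions. Named genes were the largest rises and falls with arrays that did not overlap, list members with the smallest p or described by role, the smallest interaction p-values and a fixed set of steroidogenic and Sertoli cell genes. The members and lists were chosen with earlier results of these data known. Tested on simulated data of this comparison with 21729 probe sets, the fit recovered 63% of 100 changes of 0.5 log2 and 96% of 100 changes of 1 log2, with 3 false calls among 162. The simulation changed only a small part of the probe sets, gave all groups the same spread and skipped the normalization. In the data 49.5% of probe sets were called and the estradiol arrays were more spread, so those rates do not carry over to the counts above. Alternatives were the deposited values, centring on medians, no filter or a 50% filter, no variance trend, only the 6 soy arrays, the replicate number as a block, array weights and leaving out each array in turn.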

Additional observations from a re-analysis of the deposited data

Results flagged for a closer look

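For 8 genes of the text the estradiol effect differed between the diets by the limma interaction test, and values are the effect on soy minus that on casein. Btbd10 differed by -1.05 log2 (adjusted p 0.000746), Usp8 by -1.60 log2 (0.000746) and Kdm5b by -0.95 log2 (0.00107), each in 19 of 19 alternatives. Greb1 differed by 0.77 log2 (0.0159) and passed in 16 of 18 alternatives, with adjusted p from 0.000267 to 0.0507. Mex3a differed by 0.77 log2 (0.0149) and passed in 18 of 18, up to 0.0483. For Btbd10, Usp8, Greb1 and Mex3a no other probe set passed in the interaction, and for Kdm5b 1 of the other 4 did. Myh6 differed by 0.74 log2 (0.0333; 12 of 19 alternatives), Mcm4 by 0.61 log2 (0.0333; 11 of 18) and Sgk1 by 0.58 log2 (0.0363; 10 of 19).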

How the results depend on the processing

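The number of probe sets called on soy stayed within 1.5 times the main count in each alternative, from 8246 with only the 6 soy arrays to 11352 with no filter, and from 8307 to 11265 when an array was left out. The calls that rose ran from 4528 to 5658 and those that fell from 3779 to 5607 when an array was left out. The share of calls that rose was 51% in the main fit, 56.8% on the deposited values and 54% after median centring. The interaction count depended on the setting: 1244 with median centring, 434 with the 50% filter, 3318 with array weights, and 156 to 1064 when an array was left out. Replicate numbers gave no sign of pairing: deviations of arrays with the same number correlated at 0.0261, -0.157 and 0.0526. So few values cannot show that the samples were unpaired, and the labels do not say. The replicate block gave 10520 calls on soy (5399 that rose, 5121 that fell) and 393 in the interaction.

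Of 131 probe sets of genes called in the text, 128 kept the call in every alternative that tested them. Those of Star, Cyp17a1 and Cdh1 did not, and none of the 131 turned direction. Adam7, which was not called, did turn: its difference was -0.09 log2 without soy with estradiol replicate 1, and 1.71 and 1.68 log2 without replicate 2 or 3. Of 1568 counts of list members under the alternatives, 219 lay beyond 1.5 times the main count, and counts of 0 to 2 members often turned on a single array. The cause was not tested.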

Other observations

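Some probe sets without a gene name changed strongly. Probe set 1369317_at read 4.91, 4.95 and 4.77 log2 on soy and 13.74, 8.03 and 5.87 log2 with estradiol (a rise of 4.33 log2, SE 1.34, limma adjusted p 0.0178), the widest spread among them, and the rise was 2.07 log2 without soy with estradiol replicate 1. On casein its difference was 0.51 log2 (0.787). Probe set 1383211_at rose by 1.76 log2 (2.88e-05), from 9.37, 9.41 and 9.23 to 11.40, 10.88 and 11.01 log2, and 1368785_a_at fell by 2.30 log2 (0.000214), from 9.12, 9.08 and 8.78 to 5.81, 6.81 and 7.46 log2. Of 21 measured apoptosis genes 6 rose, 4 fell and 11 did not pass (median 0.02 log2), and 2 fell without soy replicate 1 or soy replicate 3. Bcl2l11, a trigger of mitochondrial cell death, rose by 0.86 log2 (0.000121), from 6.68, 6.78 and 6.57 to 7.55, 7.54 and 7.52 log2, while its dimmer probe set differed by -0.17 log2 (0.0899). Asns, asparagine synthetase, fell by 0.73 log2 (0.000491) and the antioxidant enzyme Sod1 rose by 0.50 log2 (0.000186).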
